A study of Mus musculus with 6 samples.

Results

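The 32 genes described here encode the route from glucose to lactate: glucose carriers, the enzymes of glycolysis, lactate dehydrogenase, the carriers that move lactate across the plasma membrane, and the enzymes that set flux through phosphofructokinase and pyruvate dehydrogenase. They were taken by symbol from the authors' comparison of 22320 genes, and each of the 32 had 1 row in it and passed the minimum level used for testing. Testes were collected whole at postnatal day 1.5 and their RNA sequenced, from mice on a hybrid background of C57BL6/J and 129/SvEv. Arid4bSCKO mice had the genotype Arid4b-/Flox; Amh-cre, and control mice had the genotype Arid4b+/Flox; Amh-cre. The floxed allele and the Amh-cre transgene, whose promoter is active in Sertoli cells, were thus shared by both groups, while the null allele of the Arid4bSCKO mice was present in all of their cells. Each group comprised 3 pools of 4 testes.

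Sertoli cells, the somatic cells that line the testis cords, are known to take up glucose, turn most of it into lactate and export the lactate, which developing germ cells use as fuel. Glucose enters through facilitative carriers and is trapped by hexokinase. Phosphofructokinase makes the committed step, the payoff steps yield ATP and pyruvate, and lactate dehydrogenase converts pyruvate to lactate, which leaves through monocarboxylate transporters bound to a chaperone. Pyruvate that enters mitochondria instead is oxidised by pyruvate dehydrogenase, which pyruvate dehydrogenase kinases switch off.

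The promoters of 4 members are shown. Pgk1 and Pfkm were the 2 members called different between the groups, and Slc16a1 and Ldha belong to lactate production and export. No link between these sequences and any difference was tested. Each run holds the 250 bases before the most upstream RefSeq start (GRCm38.p6, plus strand), at chrX:106186850-106187099 for Pgk1, chr15:98092339-98092588 for Pfkm, chr3:104638414-104638663 for Slc16a1 and chr7:46845554-46845803 for Ldha. The Pfkm run lies within the span of Senp1 (chr15:98038744-98093569), a gene on the other strand. Capitals mark ACGTG and GCGTG, the cores of hypoxia response elements, on either strand.
Pgk1: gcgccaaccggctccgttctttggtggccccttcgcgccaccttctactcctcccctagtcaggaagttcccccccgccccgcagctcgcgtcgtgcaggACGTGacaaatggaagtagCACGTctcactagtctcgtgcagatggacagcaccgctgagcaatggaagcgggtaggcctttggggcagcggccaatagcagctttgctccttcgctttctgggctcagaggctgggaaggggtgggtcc
Pfkm: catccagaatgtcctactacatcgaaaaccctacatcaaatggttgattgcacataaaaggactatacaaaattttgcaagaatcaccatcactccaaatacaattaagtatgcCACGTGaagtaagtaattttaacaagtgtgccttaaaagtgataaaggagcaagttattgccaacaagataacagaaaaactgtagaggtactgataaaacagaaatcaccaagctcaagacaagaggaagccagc
Slc16a1: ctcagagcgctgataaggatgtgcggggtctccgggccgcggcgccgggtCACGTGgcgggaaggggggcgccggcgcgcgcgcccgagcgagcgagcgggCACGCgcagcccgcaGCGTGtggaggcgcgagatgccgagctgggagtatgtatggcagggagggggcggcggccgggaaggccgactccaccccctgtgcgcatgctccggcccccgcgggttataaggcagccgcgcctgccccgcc
Ldha: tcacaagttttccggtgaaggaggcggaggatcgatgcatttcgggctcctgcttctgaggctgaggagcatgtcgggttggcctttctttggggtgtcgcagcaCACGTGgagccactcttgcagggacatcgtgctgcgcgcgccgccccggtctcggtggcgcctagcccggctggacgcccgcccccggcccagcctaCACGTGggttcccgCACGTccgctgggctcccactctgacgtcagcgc
The Ldha run held 5 core matches over both strands, the Slc16a1 run 4, and the Pgk1 and Pfkm runs 2 each. Palindromic CACGTG, the E-box, counts on both strands, so the 2 matches of Pfkm are 1 E-box, whereas those of Pgk1 lie apart. The Ldha run holds 2 E-boxes and the Slc16a1 run 1, each also counted on both strands, so their matches exceed their separate sites. Windows of 300 bases, which reach past the start, were matched for 30 members, and 76.7% of them held ACGTG or GCGTG, against 58.3% of 13148 tested genes with a window. The E-box alone was in 13.3% of the members' windows and 9.5% of all, GGGCGG of Sp1 in 56.7% and 58.0%, TGACGTCA of cyclic AMP response in 3.33% and 2.82%, and TGAGTCA or TGACTCA of AP-1 in 0 members and 3.97% of all. A match describes letters only, and no binding was measured.

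Values are the authors' group means of log2(normalized count + 1), called levels below, and no value per pool was analysed here. A difference is the Arid4bSCKO level minus the control level. Its 95% interval and the SD between pools were worked back from the deposited p-value. A gene was called when a moderated limma test over 19095 genes gave an adjusted p below 0.05. Reads counted in genes came to about 16.2 to 18.4 M (M for mega) per library in Arid4bSCKO and 18.2 to 19.0 M in control. These are estimates from the summed group means and what 1 read was worth, not totals of sequenced reads. Arid4b itself was at a level of 8.68 in Arid4bSCKO testes and 10.19 in control testes, 35.1% of control. In a whole testis, fewer cells of a type and less RNA per cell cannot be told apart.

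The glycolytic set as a whole stood at nearly the same level in both groups. Summed over the 32 members, back-transformed means came to 107196 normalized counts in Arid4bSCKO testes and 106517 in control testes, or 0.455% and 0.466% of all genes. Of the members, 15 had a positive and 17 a negative difference, the median difference was -0.0048 and the median absolute difference was 0.17. Over all tested genes these medians were -0.04 and 0.24. Tested genes reach down to a mean level of 1, whereas no member was below 6.91 in Arid4bSCKO or 6.76 in control. No set of genes matched for level was compared. Pgk1 was called higher and Pfkm was called lower, so 1 of 32 was called in each direction, where 7.37% of all tested genes were called higher and 6.46% lower. The 2 calls make 6.25% of the members, against 13.8% of all tested genes. An FDR below 0.05 in the authors' deposited table was reached by 0 members, where 0.26% of all genes reached it. Arid4b itself, the targeted gene, missed it as well, at an FDR of 0.0535. The authors' unadjusted p was below 0.05 for 3 members, Pfkm, Pgk1 and Slc2a8, where it was for 20.9% of all genes. Differences were smaller than 1.2-fold for 25 members. Intervals lay wholly within a 1.5-fold change either way for 18 and within 2-fold for 31, Aldoc being the exception.

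**Figure D1:**
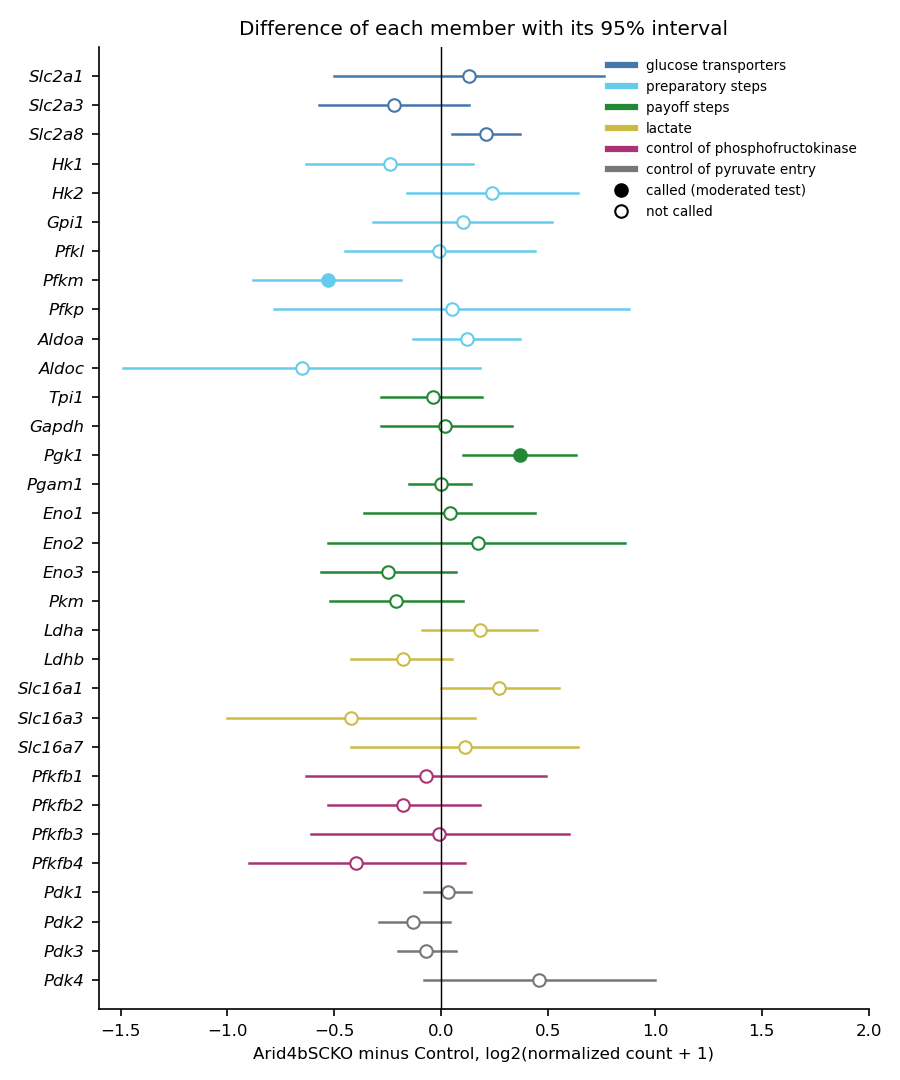
Difference of each of the 32 members (x axis, log2 units, Arid4bSCKO minus control) with its 95% interval, ordered from glucose entry at the top to pyruvate dehydrogenase kinases at the bottom, with filled points for called members. Pfkm at -0.53 and Pgk1 at 0.37 are the 2 filled points, and the widest interval is that of Aldoc.

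Of the glucose carriers, none of 3 was called. Slc2a1 encodes GLUT1, the basal carrier of most cells, and was at 9.98 in Arid4bSCKO testes and 9.85 in control testes (difference 0.13, 95% interval -0.50 to 0.76). Slc2a3, the gene of the high-affinity carrier GLUT3, was at 9.65 in Arid4bSCKO and 9.87 in control (-0.22, interval -0.57 to 0.13). Slc2a8 encodes GLUT8, which sits mainly on internal membranes. It was at 8.15 in Arid4bSCKO and 7.94 in control, with an interval of 0.05 to 0.37 and an implied SD between pools of 0.0699, and it missed the moderated test (adjusted p = 0.291). Per kilobase of transcript, Slc2a1 had the highest level of the family, with 310 normalized counts in Arid4bSCKO and 283 in control.

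Among the preparatory steps, Pfkm fell and the other 7 genes were not called. Pfkm (chromosome 15, 98092589 to 98132447, mm10) encodes the muscle-type subunit of phosphofructokinase. It was at 9.80 in Arid4bSCKO testes and 10.33 in control testes, which is 890 normalized counts in Arid4bSCKO and 1290 in control. The difference of -0.53 (95% interval -0.88 to -0.19, 69.1% of control) had an adjusted p of 0.00882, with an implied SD between pools of 0.152. Its liver-type paralog Pfkl was at 11.24 in Arid4bSCKO and 11.25 in control, with an interval of -0.45 to 0.44. The platelet-type Pfkp was at 8.41 in Arid4bSCKO and 8.36 in control. Pfkm therefore made up 30.1% of phosphofructokinase transcripts per kilobase in Arid4bSCKO and 38.4% in control, and Pfkl made up 62.1% in Arid4bSCKO and 54.9% in control. Summed over the 3 subunits, the level per kilobase was 1044 normalized counts in Arid4bSCKO and 1186 in control. Exons of Pfkm share 18 bases with those of Senp1 on the other strand, and Senp1 was also called lower, at 75.5% of control (adjusted p = 0.0358).

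The call of Pfkm depended on how the spread was modelled. When the moderated test did not let the spread follow the level, its adjusted p was 0.0948, and that of Pgk1 was 0.126. No member was then called, and 135 of all tested genes were. The authors' FDR was 0.143 for Pfkm and 0.158 for Pgk1 in their deposited table.

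Hexokinase traps glucose in the cell. Hk1, the broadly expressed form, was at 10.47 in Arid4bSCKO and 10.71 in control (difference -0.24, interval -0.63 to 0.15). Hk2, the inducible form, was at 11.28 in Arid4bSCKO and 11.04 in control (0.24, -0.16 to 0.64). The pair had opposite signs, and neither was called (adjusted p = 0.188 and 0.19). Their summed level per kilobase was 800 normalized counts in Arid4bSCKO and 794 in control, with Hk2 at 56.3% of it in Arid4bSCKO and 48.1% in control. Gpi1, the isomerase, was at 12.16 in Arid4bSCKO and 12.06 in control. Aldoa, the abundant aldolase, was at 13.75 in Arid4bSCKO and 13.63 in control. Of the summed level per kilobase of Aldoa and Aldoc, Aldoa made up 98.7% in Arid4bSCKO and 97.8% in control. Aldoc, an aldolase best known from brain, had the lowest difference of the 32 members at -0.65, with 7.68 in Arid4bSCKO and 8.33 in control. Its pools spread most, with an SD of 0.369 and an interval of -1.49 to 0.18, and it was not called (adjusted p = 0.0691).

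Among the payoff steps, Pgk1 rose and the other 7 were not called. Pgk1 (chromosome X, 106187100 to 106203699) encodes phosphoglycerate kinase, the first ATP-forming step of the route. It was at 12.50 in Arid4bSCKO testes and 12.13 in control testes, which is 5776 normalized counts in Arid4bSCKO and 4476 in control. The difference of 0.37 (interval 0.10 to 0.63, 1.29-fold) had an adjusted p of 0.0222, with an implied SD between pools of 0.117. Its neighbours along the route had differences closer to 0. Gapdh, upstream of it, was at 13.63 in Arid4bSCKO and 13.61 in control (interval -0.28 to 0.33). Pgam1, downstream of it, was at 13.36 in both groups, with an SD between pools of 0.0623 and an interval of -0.15 to 0.14. No test of Pgk1 against its neighbours was possible from group means. Copies limit some of these rows: 4 other annotated genes, all pseudogenes, share at least 300 bases at 95% identity or more with Pgk1, 3 with Ldha (also all pseudogenes) and 78 with Gapdh, 74 of them pseudogenes. How reads were shared with such copies is not given in the sources used here.

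Tpi1, the triose isomerase, was at 12.19 in Arid4bSCKO and 12.23 in control. Pkm, the pyruvate kinase gene, was at 13.43 in Arid4bSCKO and 13.64 in control (-0.21, interval -0.52 to 0.10). Of the enolases, Eno1 was at 13.34 in Arid4bSCKO and 13.30 in control. Of the summed level per kilobase of Eno1, Eno2 and Eno3 alone, Eno1 made up 95.5% in Arid4bSCKO and 94.7% in control. The row of Eno1 also lists the near-identical copy Eno1b, which has a row of its own at 8.94 in Arid4bSCKO and 8.53 in control. Eno1b was left out of these shares, and the split of reads between Eno1 and Eno1b is uncertain. Eno2, the neuronal form, was at 6.92 in Arid4bSCKO and 6.76 in control. Eno3, the muscle form, was at 8.23 in Arid4bSCKO and 8.48 in control (interval -0.56 to 0.07). Among germ line isoform genes, named after their values were seen, Pgk2 and Gapdhs were near the floor of the table. Pgk2 was at 0.66 in Arid4bSCKO and 1.60 in control, and Gapdhs at 0.43 in Arid4bSCKO and 0.60 in control. Ldhc was above the floor, at 5.31 in Arid4bSCKO and 5.51 in control, and was not called.

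**Figure D2:**
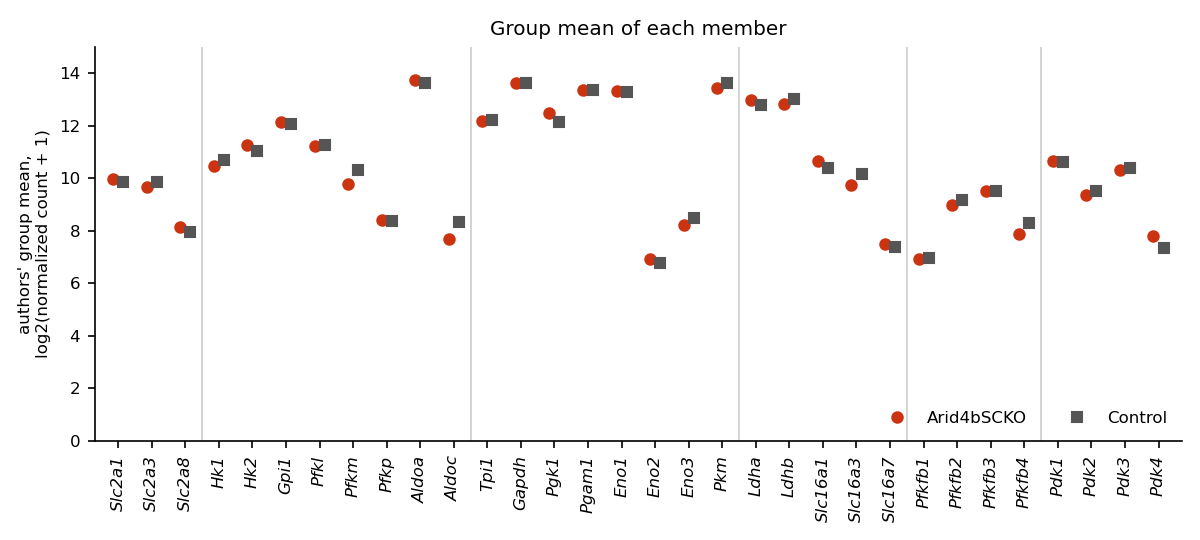
Authors' group mean level of each member (y axis, log2(normalized count + 1)), with Arid4bSCKO as circles and control as squares, and grey lines between the roles. Aldoa, at 13.75 in Arid4bSCKO, most payoff enzymes and the lactate dehydrogenases sit highest, and the 2 symbols of a gene overlap or nearly so for most members.

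In lactate production and export, none of 5 members was called, and 3 differences were positive and 2 negative. Ldha, whose subunit favours lactate formation, was at 12.99 in Arid4bSCKO testes and 12.81 in control testes (0.18, interval -0.09 to 0.45). Ldhb, whose subunit favours the reverse reaction, was at 12.84 in Arid4bSCKO and 13.02 in control (-0.18, -0.42 to 0.05). The Ldha share of the 2 genes per kilobase was 46.0% in Arid4bSCKO and 39.9% in control, with a summed level of 10409 normalized counts in Arid4bSCKO and 10604 in control.

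Of the proton-coupled carriers, none was called. Slc16a1 encodes MCT1, the widespread carrier, and was at 10.65 in Arid4bSCKO and 10.38 in control (0.27, adjusted p = 0.0809). Slc16a3 encodes MCT4, the carrier typical of lactate-exporting cells, and was at 9.76 in Arid4bSCKO and 10.18 in control (-0.42, interval -1.0 to 0.16, adjusted p = 0.0889). The log2 ratio of Slc16a1 to Slc16a3 was thus 0.89 in Arid4bSCKO and 0.20 in control, as values not corrected for length. This change of 0.69 could not be tested without values per pool. Slc16a1 passed the test (adjusted p = 0.0264) once the trend of differences over transcript length was removed. Slc16a7, the gene of the high-affinity MCT2, was at 7.5 in Arid4bSCKO and 7.39 in control.

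**Figure D3:**
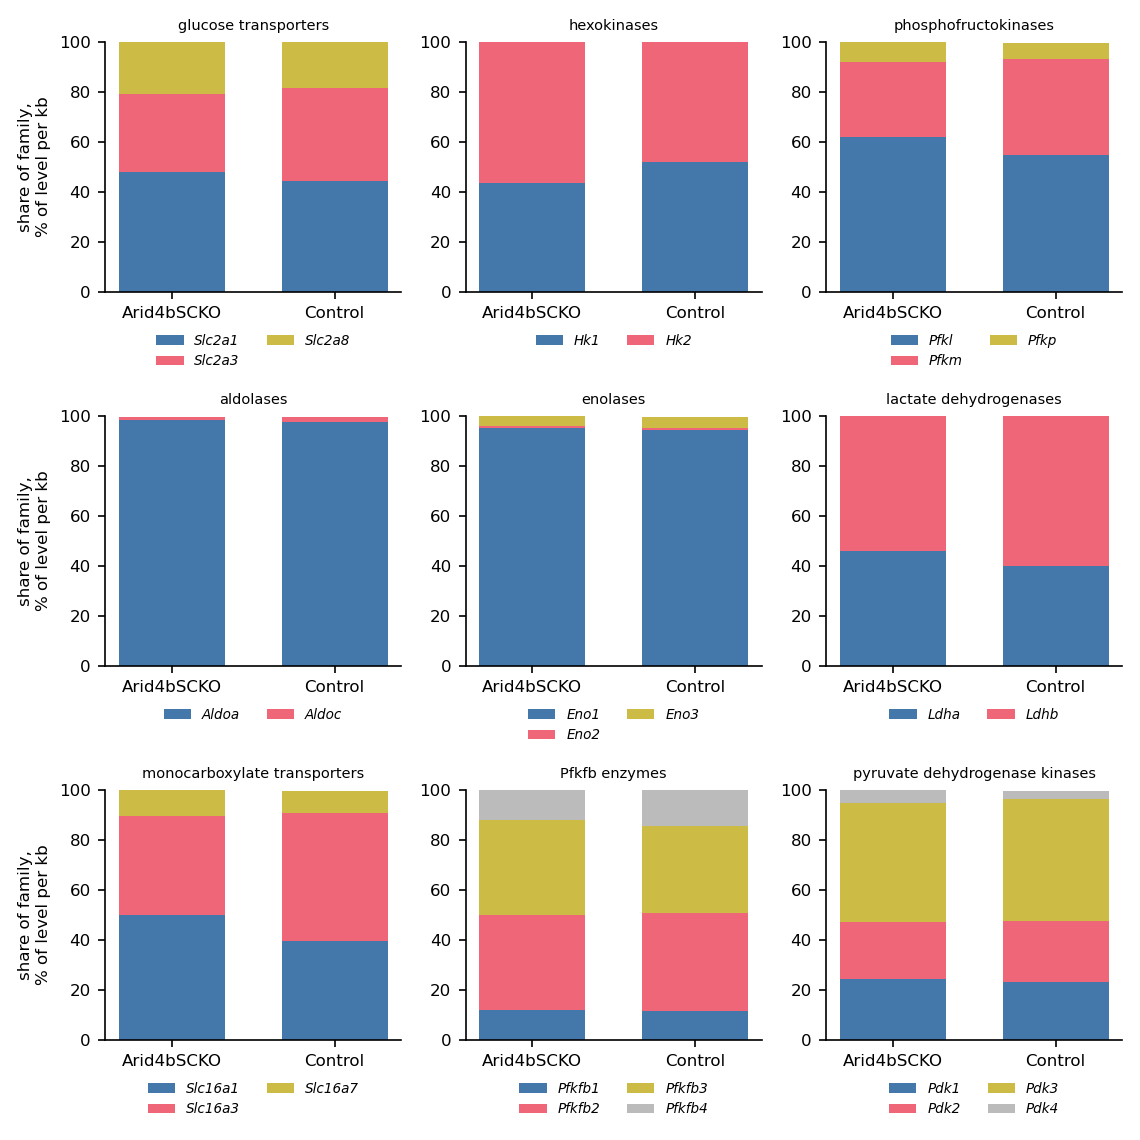
Share of each paralog in the summed level per kilobase of its family (y axis, percent), with Arid4bSCKO as the left bar and control as the right bar of each panel. Families hold members only, so Eno1b is not among the enolases. The largest shifts are those of Slc16a1, with 50.0% in Arid4bSCKO and 39.7% in control, and of Slc16a3, with 39.8% in Arid4bSCKO and 51.1% in control. No share was tested.

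Enzymes that control phosphofructokinase were not called. The 4 Pfkfb genes make or remove fructose 2,6-bisphosphate, an activator of phosphofructokinase. All 4 differences were negative, from -0.40 to -0.01, where 45.8% of all tested genes had a positive difference. The sign of Pfkfb3 turned after centring (0.03) and with the trend over level (0.0094) or length (0.06) taken out, and that of Pfkfb1 turned in the authors' ratio of medians (0.13). Pfkfb4, a form known from testis, had the largest of them, at 7.89 in Arid4bSCKO and 8.28 in control (-0.40, interval -0.90 to 0.11, adjusted p = 0.123). Pfkfb3, the form that most favours synthesis, was at 9.52 in Arid4bSCKO and 9.53 in control, and Pfkfb2 at 8.99 in Arid4bSCKO and 9.17 in control. Pfkfb1, the liver form, was at 6.91 in Arid4bSCKO and 6.98 in control.

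Among the pyruvate dehydrogenase kinases, which keep pyruvate out of mitochondrial oxidation, Pdk1 to Pdk3 had differences between -0.13 and 0.03 with little spread. Their implied SDs between pools were 0.0487, 0.0732 and 0.059. Pdk1 was at 10.65 in Arid4bSCKO and 10.62 in control (interval -0.08 to 0.14), Pdk2 at 9.37 in Arid4bSCKO and 9.50 in control (-0.29 to 0.04), and Pdk3, the most abundant of the family per kilobase, at 10.33 in Arid4bSCKO and 10.39 in control (-0.20 to 0.07). Pdk4, which fasting and fatty acids are known to induce, was at 7.81 in Arid4bSCKO and 7.35 in control. Its difference of 0.46 was the highest of the 32 members, but its interval ran from -0.08 to 1.0 (adjusted p = 0.108).

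Several genes at the exits of the route were called, some with differences beyond the range of the members. Among 28 tested isoforms and transporters outside the member list, 1 was called, or 3.57%, against 13.8% of all tested genes. This gene was Emb, which encodes embigin, a chaperone of monocarboxylate transporters. It was at 11.08 in Arid4bSCKO testes and 9.27 in control testes, a rise of 1.81 (interval 1.14 to 2.47, 3.5-fold, adjusted p = 0.000341). It kept its call when the spread did not follow the level (adjusted p = 0.0462), whereas its FDR in the authors' deposited table was 0.0909. Bsg, the gene of the other chaperone basigin, named after its values were seen, was at 13.08 in Arid4bSCKO and 12.87 in control and was not called (0.20, interval 0.11 to 0.29, adjusted p = 0.0981).

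Of 11 genes of mitochondrial pyruvate entry and oxidation, 2 were called higher and 1 lower, or 27.3% in all, against 13.8% of all tested genes. Mpc1 and Mpc2 encode the subunits of the mitochondrial pyruvate carrier. Mpc1 was at 10.89 in Arid4bSCKO and 10.08 in control (difference 0.80, interval 0.31 to 1.29), and Mpc2 at 10.28 in Arid4bSCKO and 9.77 in control (0.51, 0.20 to 0.82). Pdpr, the regulatory subunit of pyruvate dehydrogenase phosphatase, fell to 9.37 in Arid4bSCKO, against 9.82 in control (-0.46, -0.67 to -0.24). The subunit gene Pdha1 of the dehydrogenase itself, named after its values were seen, was at 10.98 in Arid4bSCKO and 11.08 in control and was not called.

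The pentose phosphate branch, which draws on glucose 6-phosphate to make NADPH and ribose, had 4 of 9 genes called higher and 0 lower, where 7.37% of all tested genes were called higher and 6.46% lower. Taldo1, the transaldolase, had 4083 normalized counts in Arid4bSCKO and 2235 in control (log2 difference 0.87, interval 0.28 to 1.46). The oxidative steps were called as well, with G6pdx at 11.48 in Arid4bSCKO and 11.0 in control (0.48, 0.17 to 0.78), Pgd at 11.84 in Arid4bSCKO and 11.34 in control (0.49, -0.04 to 1.02) and Pgls at 9.94 in Arid4bSCKO and 9.58 in control (0.36, 0.23 to 0.50). The interval of Pgd, from its own spread alone, includes 0 although its moderated adjusted p was 0.0369. Taking out the length trend left Pgls outside the test (adjusted p = 0.0957). Transketolase Tkt, at 12.44 in both groups and named after its values were seen, was not called. The 9 genes summed to 20262 normalized counts in Arid4bSCKO and 16348 in control.

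Of 14 genes of gluconeogenesis and glycogen, 2 were called higher and 2 lower, or 28.6% in all, beside the same 13.8% of all tested genes. Pck2, the mitochondrial phosphoenolpyruvate carboxykinase, was at 11.0 in Arid4bSCKO and 9.98 in control (1.02, interval 0.33 to 1.70). The gene listed as Pgm1, on chromosome 5, was at 9.95 in Arid4bSCKO and 9.23 in control (0.72, 0.34 to 1.10). The gene listed as Pgm2, on chromosome 4 and named after its values were seen, was not called. It was at 10.24 in Arid4bSCKO and 10.19 in control (0.05, -0.25 to 0.35). The glycogen phosphorylases Pygm and Pygb were lower, with differences of -0.46 (-0.76 to -0.16) and -0.36 (-0.66 to -0.06). Pygb lost its call with the length trend taken out (adjusted p = 0.0846).

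Transcription factors known to act on glycolytic genes, and their other targets, were mixed. Of 20 hypoxia-inducible factor genes and targets outside glycolysis, 2 were called higher and 3 lower. The calls made 25% of this list, against 13.8% of all tested genes, and its median difference was 0.07. Vegfa, the angiogenic factor, was at 10.11 in Arid4bSCKO and 9.55 in control (0.56, interval 0.10 to 1.02), and Ndrg1 at 10.28 in Arid4bSCKO and 9.84 in control (0.44, 0.31 to 0.57). Hif1a itself was lower, at 12.23 in Arid4bSCKO and 12.57 in control (-0.33), and so was Mxi1 (-0.30). After centring on the median of all genes, Hif1a and Mxi1 missed the test (adjusted p = 0.058 and 0.0734), as did Hif1a with the length trend taken out (0.141) and Mxi1 without a filter on level (0.0554). A further list of 10 genes joined the glucose-sensing factors and targets Mlx, Mlxip, Mlxipl, Txnip and Arrdc4 with Myc, Mycn, Ppara, Ppargc1a and Esrra. Of these 10, 2 were called higher and 2 lower, or 40% in all, against 13.8% of all tested genes. Myc was at 10.13 in Arid4bSCKO and 8.77 in control (1.36, 0.38 to 2.33), while Mycn was at 9.43 in Arid4bSCKO and 10.30 in control (-0.87, -1.66 to -0.07). Mlx, the partner of the carbohydrate response factor, was higher by 0.45, and Ppara, a regulator of fatty acid oxidation, fell by 0.70. Mlxip, Mlxipl, Txnip and Arrdc4 were not called. In all of these lists together, Emb was the only gene called when the spread did not follow the level.

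**Figure D4:**
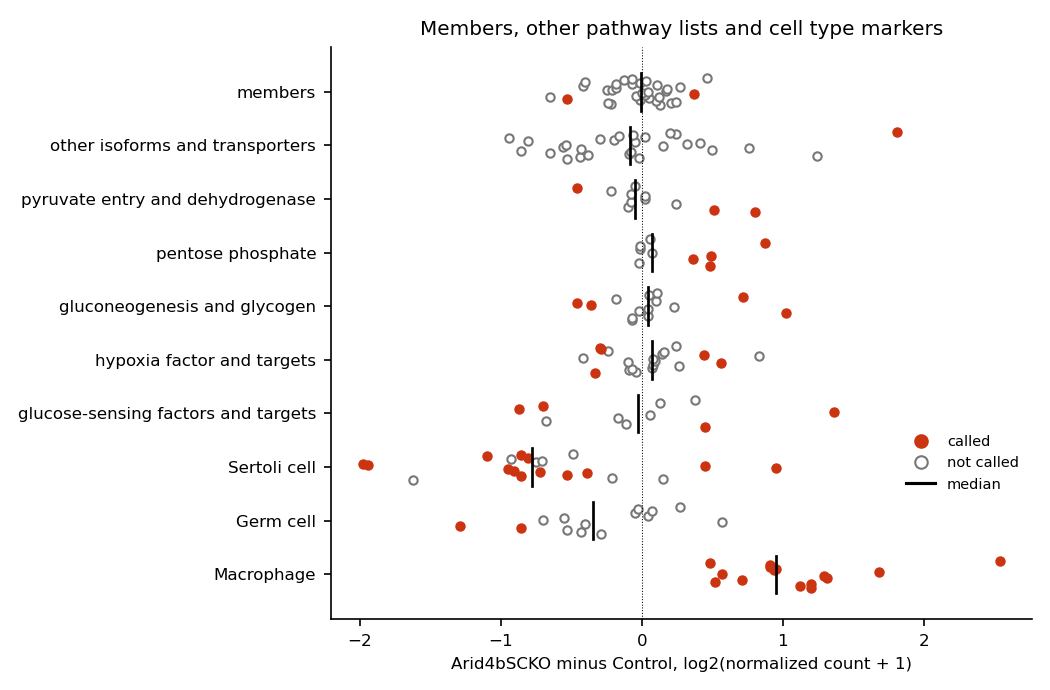
Differences of single genes (x axis, log2 units, Arid4bSCKO minus control) for the members, 6 further pathway lists and 3 marker lists, with called genes in red, the others open and each list's median as a black bar. The members cluster near 0, whereas Emb at 1.81, Myc at 1.36 and Pck2 at 1.02 lie far to the right of their lists.

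Markers of cell types moved in the same comparison, and their part in the values above was not tested. Over all tested genes, 7.37% were called higher and 6.46% lower. The Sertoli cell list (20 genes) held 11 lower calls and 2 higher calls. Its median was -0.78, with summed levels of 64552 normalized counts in Arid4bSCKO and 116285 in control. Of the 20 differences, 17 were negative and 3 positive. Amh was at 12.63 in Arid4bSCKO and 14.25 in control (-1.62, interval -3.12 to -0.12, 32.4% of control). Sox9 was at 10.81 in Arid4bSCKO and 10.67 in control (0.15, -0.38 to 0.68). Neither Amh nor Sox9 was called, and both were present in both groups. All 15 macrophage genes were called higher, with a median of 0.95 and summed levels of 7913 in Arid4bSCKO and 3604 in control. Among germ cell genes 2 of 14 were called lower and 0 higher, or 14.3% in all, near the 13.8% of all tested genes. Of their differences 10 of 14 were negative and the median was -0.35, with summed levels of 9932 in Arid4bSCKO and 12812 in control. Without the trend over transcript length, 13 macrophage genes were called higher and, of the Sertoli cell genes, 10 lower and 2 higher. When the spread did not follow the level, 1 macrophage gene and 0 Sertoli cell genes were called. Of the 12 immediate-early and stress genes, 7 were called higher and 1 lower, with summed levels of 10962 in Arid4bSCKO and 6741 in control. Skeletal muscle genes, whose part in Pfkm and Eno3 was not tested, summed to 575 in Arid4bSCKO and 436 in control, and 0 of 7 were called. Of these 7 differences 4 were positive and 3 negative. Their pools spread widely, with a median SD of 0.822 against 0.187 over all tested genes. Neuronal genes, whose part in Aldoc and Eno2 was not tested, summed to 2772 in Arid4bSCKO and 1371 in control. Most of this sum was Tubb3 (11.37 in Arid4bSCKO and 10.20 in control), and 1 of 5 was called higher and 1 lower. The other 4 neuronal genes had negative differences, and the list's median was -0.49. Peritubular myoid genes had 1 of 6 called in each direction, endothelial genes 1 of 6 higher, and fetal Leydig (7) and erythroid (7) genes 0. Of the 4 spermatid genes that the authors listed, 2 were above the minimum level and 0 were called, and Prm1 was listed at 0 in control.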

How the data were processed

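RNA-seq libraries (TruSeq Stranded mRNA, paired reads of 50 bases) were made from 6 pools, 3 per group, per the labels' protocols. The submitters' processing notes list STAR 2.4 and mm10. The counting tool, its use of strand and the scaling were not given in the sources used here. Per the file headers, the deposited table holds the authors' group means as log2 values of normalized counts, a log2 ratio of group medians, an unadjusted p-value and an FDR. The scale log2(normalized count + 1) was read from the values, and it understates changes of genes with few reads. The table gives only group means, so no member's value could be set out pool by pool.

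Each gene's variance is the one its deposited p-value implies at 4 degrees of freedom. It was moderated in limma 3.58.1 under R 4.3.3, with squeezeVar, a robust fit and a trend on level (median prior degrees of freedom 7.46). Benjamini-Hochberg adjustment ran over 19095 genes whose mean level reached 1. With robust fitting, the moderated test called 2641 genes with the trend on level and 135 without it. Which of these 2 forms of the spread suits these data was not tested. The 529 rows that held a filled-in log2 value of 0.1 in 1 library were left out of these tests. The authors' FDR, recomputed, agreed to a relative difference of 4.78e-05. Depth, an estimate of reads counted in genes, was the summed back-transformed group mean divided by the worth of 1 read. That worth took the 3 most common values of genes read in 1 library. Table starts count from 0 (9931 rows match RefSeq after adding 1) and are given from 1. Transcript lengths came from GENCODE M21 (17672 tested genes) and near-identical stretches from BLAST+ 2.17.0. Promoter sequences are RefSeq's, build GRCm38.p6, and 30 of 32 members matched. 1 list symbol, Tigar, was matched through its synonym. The marker symbols Prm2, Tnp2 and Hba-a1 were not used here. Members and lists were chosen with earlier results of these data known. All members are given. Of the other pathway lists, called genes are named, at most 4 by size of difference. Nothing in the labels says that pools came from separate litters, so p-values cover only the spread of these pools, which may be technical. Alternatives covered the filter, centring, trends over level and length, the pseudocount, the ratio of medians and the variance model.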

Additional observations from a re-analysis of the deposited data

How the results depend on the processing

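No paired analysis was possible because the table gives group means without a value per pool, and leaving out single pools was not run for the same reason. The count of called members, 2, stayed at 2 with no filter, with a minimum of 5 normalized counts, after centring, after removal of a trend over level and without robust fitting, and was 3 with the trend over transcript length removed. That removal gave 1502 higher and 798 lower calls over all genes, against 1408 and 1233. It was 0 without a trend of the spread on level, with robust fitting (135 genes called in all, against 2641) and without it (237 in all), and 5 at an adjusted p below 0.1 (4024 in all), with Aldoc (-0.65), Slc16a1 (0.27) and Slc16a3 (-0.42) added. The count past the authors' FDR, 0, stayed at 0 when readjusted over filtered genes and at an FDR below 0.1, and was 3 at an unadjusted p below 0.05. Over all genes these counts were 58 at the authors' FDR, 2 readjusted, 607 at an FDR below 0.1 and 4673 at an unadjusted p below 0.05. The members' median difference ran from -0.07 to 0.03 across the alternatives. Signs of 4 uncalled members near 0 turned. Pfkl was at 0.0279 after centring and 0.0727 with the length trend removed. Gapdh was at -0.0167 with the level trend removed and -0.0435 with the length trend removed. Pgam1 was at 0.0305 after centring. Pfkfb3 was at 0.0299 after centring, 0.0094 with the level trend removed and 0.0613 with the length trend removed. The authors' ratio of medians had the opposite sign to the difference of means for 7 members, none of them called, and for Pdk4 it was 0.70 against 0.46. The causes were not tested. Short transcripts were higher in Arid4bSCKO across 17672 genes (rank correlation -0.211, across genes, which are not independent replicates). At 3 pools a group, intervals of single members bound the difference to within 1.5-fold for 18 of the 32.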
